A study of Arabidopsis thaliana with 6 samples.

Results

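A group of 10 genes of unknown function was followed in inflorescences of the Arabidopsis mutant *tink/ibr5-6*. Of these, 8 lie on chromosome 3, where AT3G28750, AT3G28780, AT3G28790, AT3G28810, AT3G28820, AT3G28830 and AT3G28840 form a cluster and AT3G28980 lies further along, and AT5G39870 and AT5G39880 lie beside each other on chromosome 5. The genes were chosen by their lower values in *tink/ibr5-6*, so that the difference between the genotypes is a description of them and not a result. A probe set of their own was found for 8 of the 10 genes, 6 on chromosome 3 and 2 on chromosome 5, among 13356 such genes on the array. AT3G28810 and AT3G28820 share 1 probe set and could not be told apart. *tink/ibr5-6* carries a recessive mutation in the dual-specificity MAPK phosphatase gene *IBR5*. It came from an EMS screen of *klu-2* plants in the Landsberg *erecta* (L*er*) background, and repeated backcrosses to L*er* freed it of *klu-2*. Inflorescences that carried young buds were harvested from 3 *tink/ibr5-6* plants and 3 L*er* plants, untreated and with no age given, and the RNA of each plant was hybridised to 1 Affymetrix ATH1 array, whose probes stand for genes in sets.

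The study's annotation of AT3G28780 and AT3G28840 names a domain of unknown function, DUF1216, and describes the 2 genes as similar to each other. It describes AT3G28750 on chromosome 3 and AT5G39880 on chromosome 5 as similar to each other. Whether the 2 pairs are related to each other could not be checked here. A domain of unknown function is a stretch of protein that recurs in related proteins and has been given no biochemical role. Clusters of similar genes usually arise by tandem duplication, through which a gene is copied beside itself, and the copies can keep a shared pattern of expression or drift apart. The anther, to which the group has been assigned, holds the tapetum, a layer that nourishes the young microspores, and the pollen that matures from them. Whole inflorescences mix all of these tissues with petals, sepals, pistils and stem, so that the arrays cannot show in which organ the genes were expressed. Fewer cells of a type and less RNA per cell cannot be told apart in such samples, and the mix of bud stages in each sample, which the labels do not give, cannot be told apart from the genotype.

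The values are those of gcrma, a method that corrects each probe for background according to its bases and summarises a probe set as 1 log2 value per array, so that a difference of 1 is a doubling. The lowest value it gave was 2.10, and a log2 value under 3 is called dim below. The medians of the 6 arrays lay between 6.18 and 6.20, and each array had between 7566 and 7755 dim probe sets of 22746. Correlation across probe sets was 0.996 to 0.998 within a genotype and 0.972 to 0.985 between genotypes. The genotypes were compared at every probe set with limma, and calls required an adjusted p under 0.05 together with a log2 difference above 1 in either direction. With 3 arrays of each genotype the smallest p of an exact permutation test would be 0.1.

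AT3G28790, AT3G28830 and AT3G28980 were lower in the mutant but remained far above the dim level there. AT3G28790 had log2 values of 10.36, 10.52 and 8.60 on the *tink/ibr5-6* arrays and 12.37, 12.44 and 12.30 on the L*er* arrays. AT3G28830 had 10.34, 10.58 and 8.77 in *tink/ibr5-6* and 12.31, 12.52 and 12.36 in L*er*, and AT3G28980, the member outside the main cluster, 10.46, 10.43 and 8.72 in *tink/ibr5-6* and 12.11, 12.38 and 12.08 in L*er*. In all 3 the arrays of the genotypes did not overlap, the L*er* arrays lay close together and *tink/ibr5-6* replicate 3 lay well below the other mutant arrays. The mean log2 differences of *tink/ibr5-6* from L*er* were -2.54 for AT3G28790, -2.50 for AT3G28830 and -2.32 for AT3G28980, which as ratios of L*er* over *tink/ibr5-6* were 5.82, 5.65 and 5.0. AT3G28980 is separated from AT3G28840 by 23 other protein-coding genes. Its differences from L*er* on the 3 mutant arrays were near those of AT3G28790 and AT3G28830, which is a description, since all 3 genes were picked for their fall.

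AT3G28750, AT3G28780 and AT3G28840 had lower values still in the mutant, relative to L*er*. AT3G28750 had log2 values of 9.46, 9.56 and 7.45 in *tink/ibr5-6* and 12.37, 12.67 and 12.45 in L*er*, a mean difference of -3.67. AT3G28840, with the DUF1216 domain, had 6.86, 7.58 and 5.16 in *tink/ibr5-6* and 10.39, 10.45 and 10.51 in L*er*, a mean difference of -3.91. Again replicate 3 was the lowest of the mutant arrays in both, by 2.0 in AT3G28750 and by 1.70 in AT3G28840. AT3G28780, the other gene with that annotation, had 4.06, 4.64 and 3.57 in *tink/ibr5-6* and 8.38, 8.01 and 8.35 in L*er*, a mean difference of -4.16, or 17.8 as a ratio of L*er* over *tink/ibr5-6*. Its mutant arrays lay nearer to each other than those of the other 5 chromosome 3 genes, and nearer to the dim end of the scale.

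The probe set that AT3G28810 and AT3G28820 share behaved like the others, although its signal cannot be assigned to either gene. It had log2 values of 8.15, 8.62 and 6.47 in *tink/ibr5-6* and 11.47, 11.78 and 11.70 in L*er*, a mean difference of -3.91, with replicate 3 again the lowest mutant array. It is left out of all counts below.

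On chromosome 5 the 2 adjacent genes differed from each other. AT5G39880, described as similar to AT3G28750, had log2 values of 5.21, 2.10 and 2.75 in *tink/ibr5-6* and 8.96, 10.28 and 9.34 in L*er*. Its mean difference of -6.17 was the largest of the 8 genes, and is not exact, since 2 of the mutant arrays were dim and replicate 2 lay at the lowest value. AT5G39870 was dim on all mutant arrays, with 2.10, 2.10 and 2.33 in *tink/ibr5-6* and 2.60, 4.46 and 3.72 in L*er*. L*er* replicate 1 was dim too, and the gap between the highest mutant and the lowest L*er* array was 0.27, the narrowest of the group. Counted from the log2 level of 3 to the L*er* mean, AT5G39870 was 1.51-fold lower in *tink/ibr5-6*, beside a measured mean difference of -1.41. With L*er* replicate 1 itself dim, this is no lower limit.

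**Figure D1:**
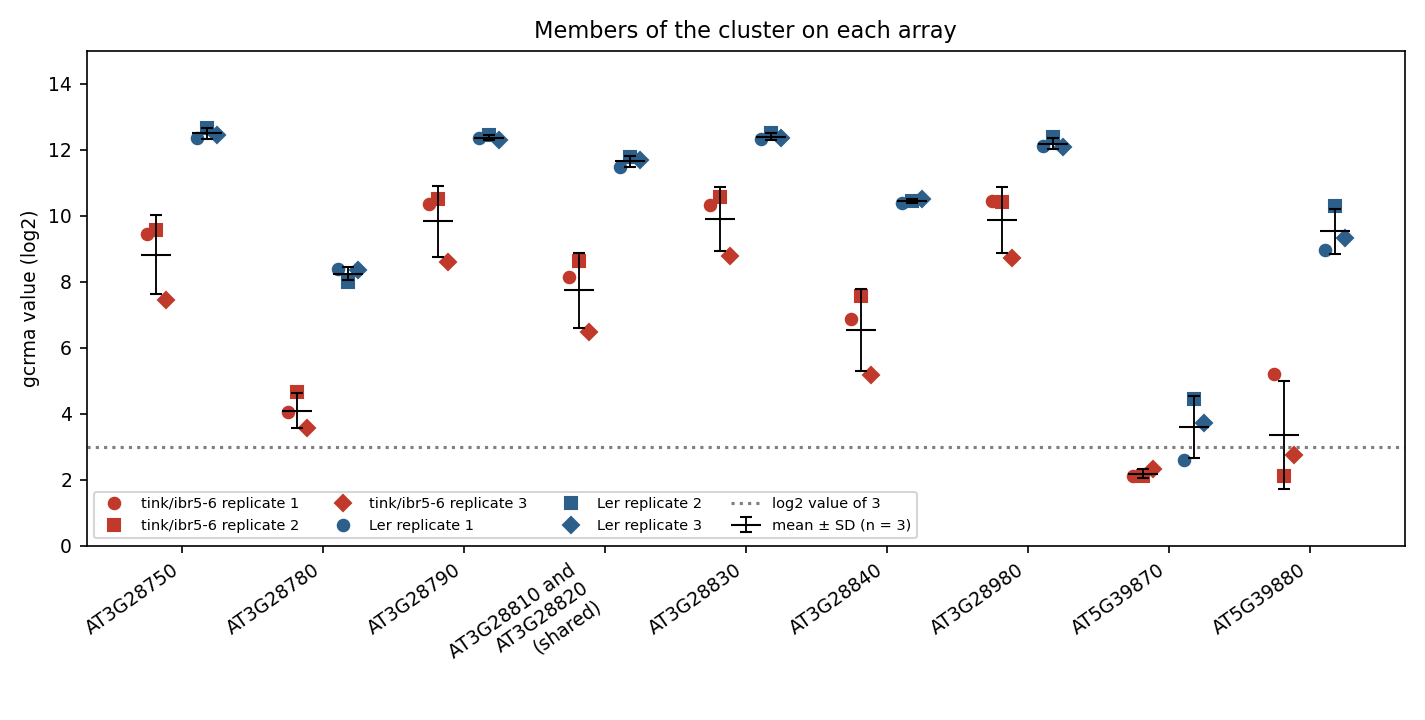
Log2 gcrma value of each gene of the group on each array, *tink/ibr5-6* in red to the left and L*er* in blue to the right of each position, with the replicate number given by the marker and the mean and SD of 3 arrays as bars; the dotted line is the log2 value of 3. The red and blue points do not overlap for any gene, and the red diamond, replicate 3, is the lowest of its group in every chromosome 3 gene, from 3.57 for AT3G28780 to 8.77 for AT3G28830.

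The limits of the group were therefore -6.17 for AT5G39880 and -1.41 for AT5G39870, with a median log2 difference of -3.11 over the 8 genes, against 0.00 over all probe sets. By the thresholds given above, 5 of the 8 were called lower in *tink/ibr5-6*, as were 2.71% of all probe sets. The genes called were AT3G28750, AT3G28780, AT3G28830, AT3G28840 and AT5G39880. In all 8 the mutant arrays lay below all L*er* arrays, as in 14.4% of all probe sets. The genes were picked for this fall, so that nothing is read from these counts. The count of 5 rests on few arrays. It was 6 once *tink/ibr5-6* replicate 3 was left out, 2 with the omission of replicate 1 or 2 of *tink/ibr5-6* or replicate 1 of L*er*, and 1 with that of replicate 2 or 3 of L*er*. The genes called changed as well. Without *tink/ibr5-6* replicate 3 they were the 6 chromosome 3 genes, and AT5G39880 was not called. Without L*er* replicate 1 they were AT3G28780 and AT5G39870. AT3G28780 alone was called in each of these 6 fits.

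The genes were chosen by their lower values in *tink/ibr5-6*, and not directly by differences between plants of 1 genotype. A low mutant array enlarges the fall, however, so that the spread in the mutant and its direction are not free of this choice. The median log2 difference of the members was -3.11 with all arrays and -2.46 without *tink/ibr5-6* replicate 3. Over the 6 chromosome 3 genes, the median SD between plants was 1.03 on the log2 scale in *tink/ibr5-6* (0.54 to 1.24) and 0.13 in L*er* (0.060 to 0.21). Over all 14658 probe sets with no dim array, the median SD was 0.11 in *tink/ibr5-6* and 0.12 in L*er*. The smallest mutant SD of the 6 genes, 0.54, was reached by 1.57% of these probe sets. That limit was taken from the 6 genes, so that their reaching it is no result. Among the 414 of them called lower in the mutant, the median SD was 0.28 in *tink/ibr5-6* and 0.20 in L*er*. The chromosome 3 genes thus varied more between the 3 mutant plants than between the 3 L*er* plants. This was not particular to them. Among genes described below, the SDs in *tink/ibr5-6* and L*er* were 1.28 and 0.087 in *HTR10*, 0.90 and 0.18 in AT5G45880, and 0.73 and 0.13 in AT5G61720. They were 0.32 and 0.70 in *ANX2*, which was dim on all mutant arrays.

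This spread had a common direction. Set against the L*er* mean, the 6 chromosome 3 genes had a median log2 difference of -2.55 in *tink/ibr5-6* replicate 1 (-4.19 to -1.73), -2.36 in replicate 2 (-3.60 to -1.76) and -4.22 in replicate 3 (-5.29 to -3.47). Replicate 3 was the lowest mutant array for 6 of 6 genes, below the next by 0.49 in AT3G28780 and by 1.56 to 2.0 in the others. Over all 14809 probe sets with no dim mutant array, replicate 3 was the lowest for 32.3%, and over the 414 called lower with no dim mutant array for 61.4%. Replicate 3 was thus low for many genes that fell in the mutant, and not over all probe sets. It is 1 plant, so that the 6 genes are not replicates of this order. On the L*er* arrays the order was less uniform. Over the 7 genes with no dim L*er* array, replicate 2 was the highest for 5 (32.0% of all 14993 such probe sets) and replicate 1 the lowest for 4 (39.0% of them), while the L*er* arrays of each chromosome 3 gene lay within 0.37 of each other.

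The chromosome 5 genes did not follow this order. In AT5G39880 replicate 1 was the highest mutant array, and replicates 2 and 3 were both dim. AT5G39870 lay at or near the lowest value on all 3 mutant arrays, which then have no order. On the L*er* arrays both genes were highest in replicate 2 and lowest in replicate 1, over a range of 1.32 for AT5G39880 and 1.86 for AT5G39870, beside 0.12 to 0.37 for the chromosome 3 genes. Correlated over the 6 arrays with the mean of the 7 other genes, the chromosome 3 genes had Pearson's r of 0.97 to 0.99, AT5G39880 had 0.92 and AT5G39870 had 0.76. These correlations are descriptions over 6 arrays, most of whose range is the difference by which the genes were picked.

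**Figure D2:**
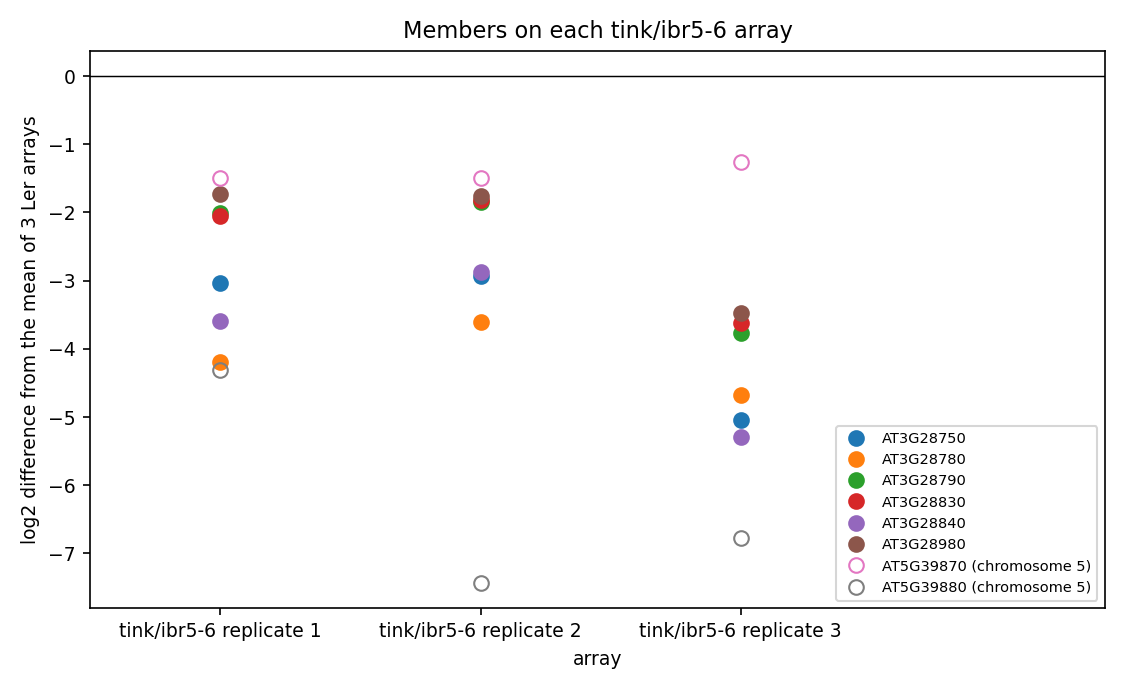
Difference of each *tink/ibr5-6* array from the mean of the 3 L*er* arrays, on the log2 scale, for the 8 genes with a probe set of their own; filled points are chromosome 3 genes and open points chromosome 5 genes. The filled points lie between -3.47 and -5.29 in replicate 3, and between -1.73 and -4.19 in the other replicates, while AT5G39880 is highest in replicate 1.

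The genes around the group were set beside it. They are those left once genes picked for their fall were taken out, so that small differences among them partly follow from that choice. In the gene order of the RefSeq annotation, AT3G28750 to AT3G28840 is a run of 10 protein-coding genes, 7 of which belong to the group. Neighbours were taken as the other protein-coding genes between the members and the 25 on either side of them on each chromosome, 126 in all, of which 56 had a probe set of their own. Of these 56, 1 was called lower in *tink/ibr5-6* (2.71% of all probe sets) and none was called higher (1.53% of all probe sets). At an unadjusted p under 0.05 from limma, 6 were lower and 10 higher, beside 2708 and 4079 of all 22746 probe sets. The neighbours had a median log2 difference of 0.00, and 54 of the 56 lay within 1 of no difference, as did 21515 of the 22746 probe sets. On all 6 arrays 16 of them were dim, so that a fall could not have been seen there.

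The nearest measured neighbours had small differences, AT3G28770 apart. AT3G28760 lies next to AT3G28750, and had log2 values of 7.29, 7.16 and 7.33 in *tink/ibr5-6* and 7.22, 7.22 and 7.39 in L*er*, a difference of -0.02 (limma, standard error (SE) 0.073, adjusted p = 1.0). AT3G28850, which follows AT3G28840, had 5.35, 5.23 and 5.35 in *tink/ibr5-6* and 5.35, 5.45 and 5.24 in L*er*, a difference of -0.04 (limma, SE 0.069, adjusted p = 0.90). The arrays of the 2 genotypes overlapped in both genes. AT3G28960, separated from AT3G28980 by 1 gene, had a difference of -0.26 (limma, SE 0.26, adjusted p = 0.61), and AT5G39900, separated from AT5G39880 by 1 gene, one of 0.21 (limma, SE 0.17, adjusted p = 0.55), near the dim end of the scale.

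AT3G28770, between AT3G28760 and AT3G28780, was the exception by its values, although it was not called. It was at or next to the lowest value on all mutant arrays, with 2.10, 2.11 and 2.10 in *tink/ibr5-6* and 2.59, 4.87 and 3.98 in L*er*. Its fitted difference was -1.71 (limma, SE 0.63, adjusted p = 0.17), and the gap between the genotypes was 0.48. Counted from the log2 level of 3 to the L*er* mean it was 1.76-fold lower. This is no lower limit, since L*er* replicate 1 was itself dim. The order of its L*er* arrays, with replicate 2 highest and replicate 1 dim, was that of AT5G39870. It was not particular to them, since the pollen gene *ANX1*, described below, had 2.68, 4.22 and 3.76 in L*er*. The neighbour that was called lower, AT3G29070, is annotated by the study as a protein carrier similar to the p24 family, which acts in transport between the endoplasmic reticulum and the Golgi. It lies 12 genes beyond AT3G28980, with values of 2.38, 2.77 and 2.35 in *tink/ibr5-6* and 4.43, 4.62 and 4.62 in L*er*. All its mutant arrays were dim, so that it was at least 2.94-fold lower, with a fitted difference of -2.06 (limma, SE 0.14, adjusted p = 0.0049). The count of 1 was 2 without L*er* replicate 1, and without the limit on the size of the difference 8 neighbours passed. These 8 lay in both directions. Among them, and named after its values were seen, was AT5G39850 near the chromosome 5 pair, with 10.45, 10.39 and 10.64 in *tink/ibr5-6* and 9.69, 9.70 and 9.70 in L*er* (difference 0.79, SE 0.070, adjusted p = 0.0075 by limma). AT5G39960, near the same pair, had a larger difference of 0.84 (SE 0.032, adjusted p = 0.0018 by limma).

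**Figure D3:**
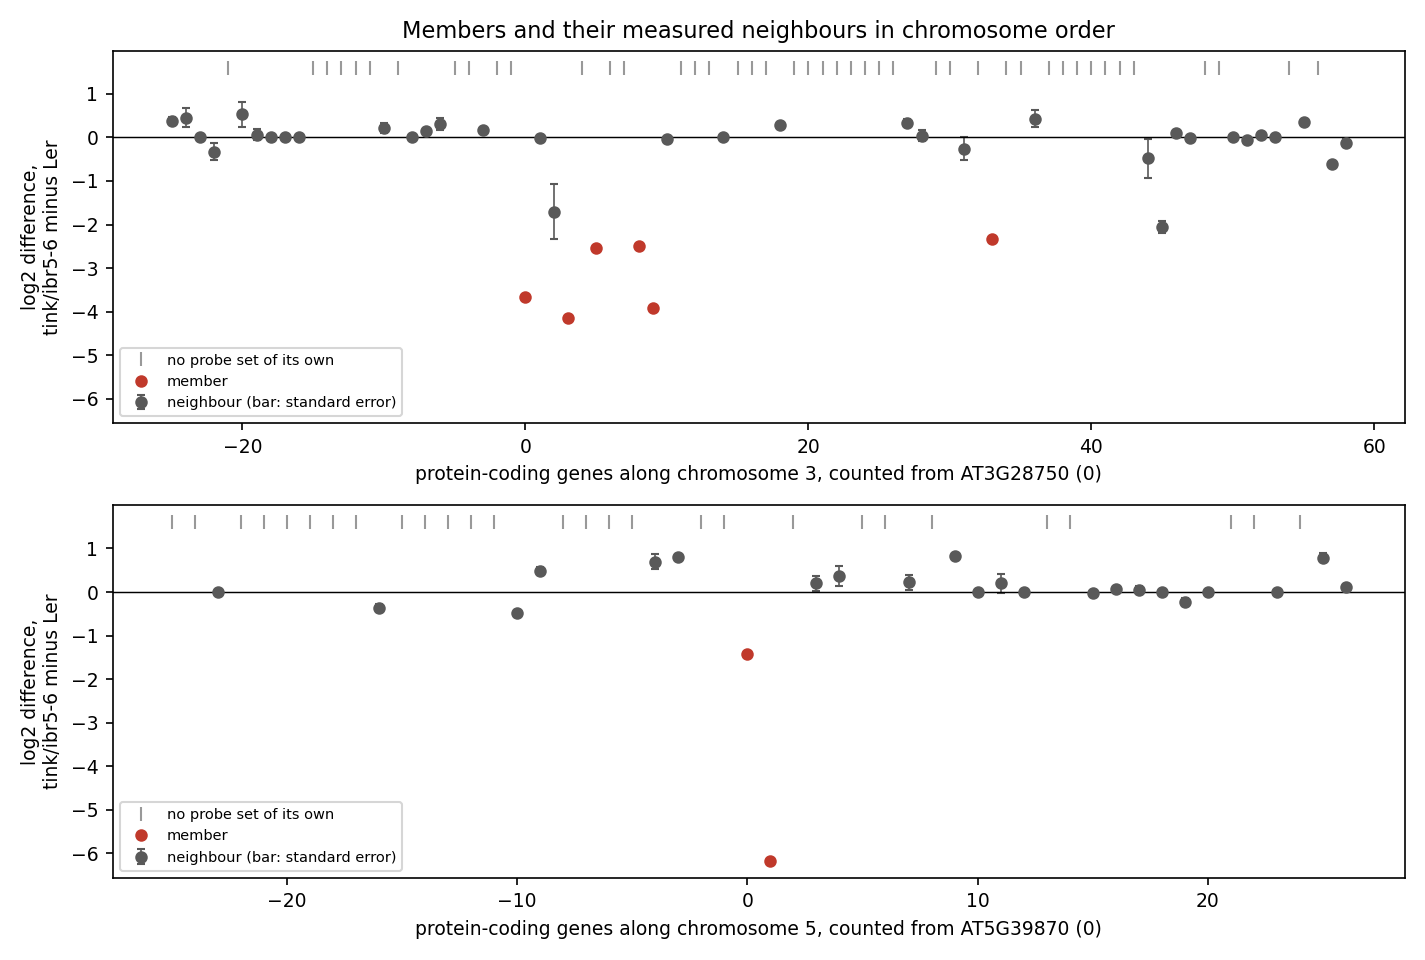
Log2 difference of *tink/ibr5-6* from L*er* for the genes around the group in chromosome order, chromosome 3 above and chromosome 5 below; red points are members, grey points neighbours with the standard error from limma as bars, and ticks mark genes with no probe set of their own. The red points lie between -1.41 and -6.17 among grey points near 0, and the grey points below -1 are AT3G28770 (-1.71) and AT3G29070 (-2.06).

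Another gene outside the group, AT5G61720, is annotated by the study with the DUF1216 domain and as similar to AT3G28830. It had log2 values of 6.61, 6.92 and 5.52 in *tink/ibr5-6* and 10.53, 10.76 and 10.77 in L*er*, a difference of -4.34. Replicate 3 was its lowest mutant array, as in the 6 chromosome 3 genes, and replicate 2 its highest, as in 5 of those 6. The annotation was taken from the study's list of changed genes, so that its fall, like that of the members, is a description.

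Marker genes of the anther were set beside the group to place it. From a list of 26 tapetum and early anther genes 6 had a probe set of their own, and none was called in either direction by limma (2.71% lower and 1.53% higher over all probe sets). Their median log2 difference was 0.30, with a range of -0.34 to 0.89. At an unadjusted p under 0.05 from limma, 3 were higher and none was lower, beside 4079 and 2708 of all 22746 probe sets. *AMS* encodes a transcription factor that tapetum development requires, and had 8.39, 8.89 and 8.72 in *tink/ibr5-6* and 7.79, 7.83 and 7.70 in L*er* (difference 0.89, adjusted p = 0.025 from limma), and *SWEET8*, a sugar transporter gene needed for the pollen wall, had a difference of 0.49 (adjusted p = 0.015 from limma). Both lay under the limit for a call, although 1 tapetum gene was called without *tink/ibr5-6* replicate 1. Their mutant arrays lay above their L*er* arrays, as did those of *A9*, also on the list. The share of all probe sets with this order was not counted, so that nothing is read from it. No array of either genotype was dim for any of the 6 genes. Their mean log2 value was 10.16 to 10.26 on the mutant arrays and 9.94 to 9.98 on the L*er* arrays.

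Of 38 genes of mature pollen and the pollen tube 12 had a probe set of their own, and 8 of them were called lower (2.71% of all probe sets), none higher (1.53%), with a median log2 difference of -2.24. Over the 10 that were not dim on all arrays, the mean log2 value was 4.79, 4.50 and 4.16 in *tink/ibr5-6* and 7.09, 7.83 and 7.26 in L*er*. *ANX1*, *ANX2* and AT3G05610 were dim on all mutant arrays and are among the 10 only through their L*er* arrays. The difference between these means thus partly follows from the filter, and the mutant means are not exact. Leaving out *tink/ibr5-6* replicate 2 gave 4 in place of 8, and leaving out *tink/ibr5-6* replicate 3 or L*er* replicate 3 gave 5. Among brighter probe sets alone, with mean values from 6 upwards, 2 pollen genes were called. Of the 12, only *SWEET5*, AT5G45880 and *AGL18* have such means, and the rest were left out of that fit. The list was written with results of these arrays known, and is not independent evidence. The LIM protein gene *PLIM2A* had values of 3.75, 2.23 and 2.33 in *tink/ibr5-6*, dim on 2 arrays, against 7.63, 8.94 and 7.98 in L*er*. There replicate 1 was the highest mutant array, as in AT5G39880, and replicate 2 the highest L*er* array. The pectinesterase gene AT3G05610 was dim on all mutant arrays, with 2.90, 2.16 and 2.13 in *tink/ibr5-6* and 7.02, 8.22 and 7.18 in L*er*, and was at least 22.2-fold lower (adjusted p = 0.0070 from limma).

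Some other markers, though not all, were lowest on *tink/ibr5-6* replicate 3, as the chromosome 3 genes were. So were 61.4% of the 414 probe sets called lower with no dim mutant array. *PLIM2A* was lowest on replicate 2, with 2.23 there and 2.33 on replicate 3. *SWEET5*, a sugar transporter gene of pollen, had 5.30, 6.04 and 4.55 in *tink/ibr5-6* and 9.97 to 10.05 in L*er*, with replicate 2 highest and replicate 3 lowest among the mutant arrays. AT5G45880, on the pollen list and named after its values were seen, had 10.19, 10.04 and 8.56 in *tink/ibr5-6* and 12.37, 12.57 and 12.20 in L*er*, a difference of -2.78 (adjusted p = 0.033 from limma). *HTR10* encodes a histone of the male germ line and was measured alone among 5 sperm genes. It had 4.92, 5.14 and 2.81 in *tink/ibr5-6* and 7.14, 7.27 and 7.31 in L*er* (difference -2.95, adjusted p = 0.062 from limma, not called). Of the remaining pollen genes, *ANX1*, dim on all mutant arrays and on L*er* replicate 1, did not pass (adjusted p = 0.10 from limma). Counted from the log2 level of 3 to its L*er* mean it was 1.47-fold lower, which is no lower limit, since L*er* replicate 1 was dim. *AGL18* did not pass either, with a difference of 0.03 (adjusted p = 0.96 from limma), and *ANX2*, dim on all mutant arrays, was at least 7.53-fold lower (adjusted p = 0.014 from limma). The part that pollen or bud stage had in the values of the group was not tested.

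**Figure D4:**
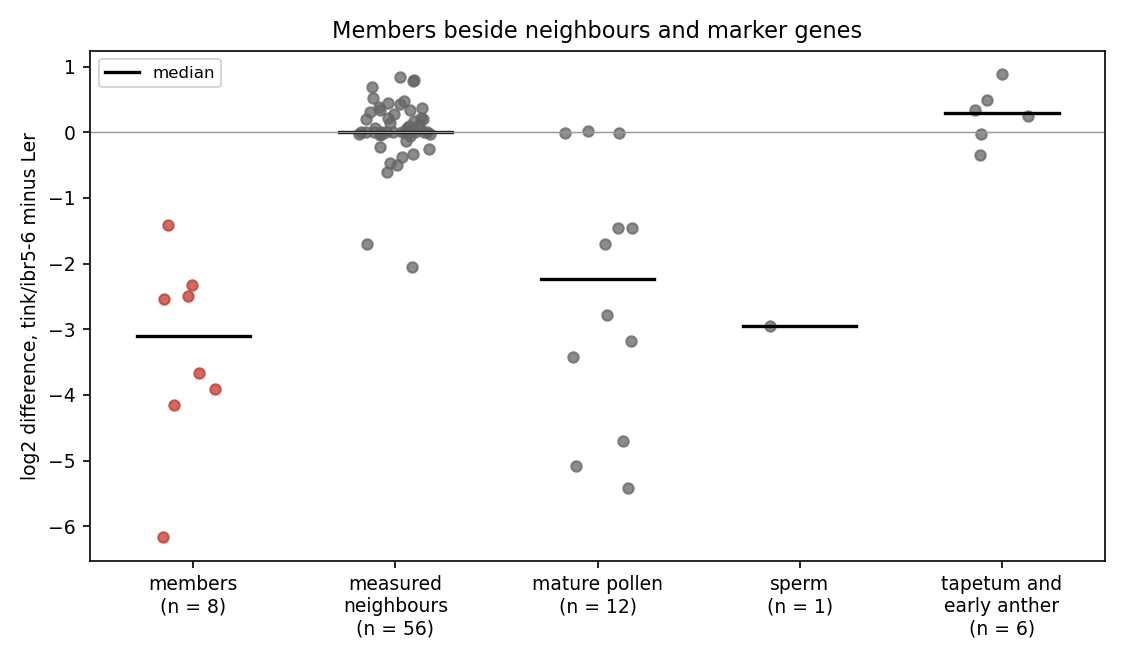
Log2 difference of *tink/ibr5-6* from L*er* for the 8 members, their 56 measured neighbours, and the measured marker genes of mature pollen (12), sperm (1) and the tapetum and early anther (6); each point is a gene, spread sideways for legibility, and lines are medians. The medians are -3.11 for the members, 0.00 for the neighbours, -2.24 for mature pollen and 0.30 for the tapetum and early anther, and the members were picked for their fall.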

How the data were processed

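The authors hybridised 1 Affymetrix ATH1 array per RNA sample, normalized the arrays with gcrma (named in the submitters' processing notes, version not given in the sources used here) and deposited the log2 values of 22810 probe sets. These were used without further scaling, less 64 control probe sets. According to the annotation of the platform 13513 probe sets stand for a single gene and 503 for several, while 8730 are not listed. Of the 13513, 13436 matched a RefSeq gene (TAIR10.1), which was used for locus names and gene order only. For 146 genes with several probe sets the one with the highest mean was taken.

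The comparison of genotypes used limma 3.58.1 (R 4.3.3), with Benjamini-Hochberg adjustment over 22746 probe sets and thresholds from the methods. The procedure was tested on simulated data. Figures were drawn with Python 3.11.15 and matplotlib 3.10.9. The members, the lists, the rule for neighbours and the dim level of 3 were chosen with earlier results of these data known. The text names all members, called neighbours, the nearest neighbours not called (with 1 more for a tie), and up to 4 called and 2 other genes per marker list. Beyond this rule it names AT5G39850, AT5G39960, AT5G45880 and *A9*, chosen after their values were seen. The search for further DUF1216 genes could not be run, since the annotation used here gives no domains or proteins. For the same reason no sequences are shown. The number of arrays limits the precision. Alternatives were other scalings, filters, priors, weights and thresholds, the replicate number as a block, and leaving out each array.

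Arrays of the same number did not deviate together from their genotype means (r of -0.30, 0.02 and -0.05 over 14201 probe sets), so that the numbers were not treated as pairs. Arrays of unlike number had r of -0.22 to 0.25. Of the genes most like the members, 1 is not reported here.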

Additional observations from a re-analysis of the deposited data

How the results depend on the processing

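The median log2 difference of the 8 genes was -3.11, and -3.47 to -2.46 over the fits that leave out 1 array, -3.14 to -2.93 over the other scalings and array weights. All 8 were lower in *tink/ibr5-6* in each of these fits. The 5 members called lower became 1 at an adjusted p under 0.01 and 1 to 6 when 1 array was left out, and 7 with arrays centred on their medians or dim probe sets left out. The replicate block, which does not rest on known pairs, called 0 members, 0 neighbours, 0 pollen genes and 133 probe sets in all, where 966 were called without it. The 966 became 632 when only brighter probe sets (mean from 6 upwards) were tested, 366 at an adjusted p under 0.01, 3697 without the limit on the difference and 518 to 746 when 1 array was left out, being 577 and 518 for *tink/ibr5-6* replicates 1 and 2, and 594 and 553 for L*er* replicates 2 and 3. The 1 neighbour called was 0 with a mean of at least 4 or 6, which leave AT3G29070 out, 8 without the limit on the difference, and 1 to 2 when 1 array was left out (2 without L*er* replicate 1). Pollen genes called were 2, instead of 8, with a mean of at least 6, which leaves most of the measured pollen genes out. They were 3 at an adjusted p under 0.01 and 4 to 7 when 1 array was left out (4 without *tink/ibr5-6* replicate 2, 5 without replicate 3 of either genotype). Tapetum genes called were 2 without the limit, and 0 to 1 when 1 array was left out (1 without *tink/ibr5-6* replicate 1). Except where the fits test fewer arrays or probe sets, the cause was not tested. Probe sequences were not used here, so that cross-hybridisation between the similar genes of the cluster was not tested.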

Other observations

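The genes outside the group whose values ran most like its own were sought among 388 genes with a range of at least 2 on the log2 scale over the 6 arrays. Among the 5 with the highest Pearson's r to the mean of the members were AT1G35490 (r = 0.999), annotated by the study as a bZIP transcription factor, AT3G25930 (r = 0.998), as a universal stress protein, AT5G50030 (r = 0.998), as an invertase/pectin methylesterase inhibitor, and *AGL104* (r = 0.997), a MADS box gene that acts in pollen maturation. In AT5G50030 the log2 values were 5.79, 5.36 and 4.08 in *tink/ibr5-6* and 9.02, 9.73 and 9.07 in L*er*, and in *AGL104* they were 3.06, 2.82 and 2.14 in *tink/ibr5-6* and 5.06, 5.47 and 5.08 in L*er*. In these 4 genes replicate 3 was the lowest mutant array. This follows from their choice, since the centred mean of the members was -1.13, -1.30 and -2.57 on the 3 mutant arrays. The correlations are over 6 arrays that share the difference by which the members were picked, and are given as a description.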
